A study of Mus musculus with 6 samples.

Results

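Cathepsins are the main proteases of the lysosome, and the transcripts of 10 of them were followed in hippocampal astrocytes of mice with or without ablation of microglia. The members were the genes *Ctsa*, *Ctsb*, *Ctsc*, *Ctsd*, *Ctsf*, *Ctsh*, *Ctsk*, *Ctsl*, *Ctss* and *Ctsz*, taken by name from the deposited tables. All 10 were found among the 24421 genes listed. Astrocytes came from the hippocampus of adult male Siglechdtr/dtr mice on a C57BL/6 background, in which both alleles of *Siglech*, a gene expressed in the brain almost only by microglia, carry the diphtheria toxin receptor. Both groups had this genotype. The PBS group was injected intraperitoneally with PBS and the DT group with diphtheria toxin at 50 μg/kg, each 2 days before sampling. For each library, hippocampi of 2 mice were pooled, cells binding anti-CD11b beads (microglia and macrophages) were removed, and astrocytes were captured with beads against the surface antigen ACSA-2. There were 3 PBS libraries and 3 DT libraries from 3 independent experiments, so each library is a pool and the spread between single mice was not measured.

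A cathepsin is made as an inactive precursor, is tagged with mannose 6-phosphate, travels to the lysosome and is activated there by acid and by cleavage. The family holds cysteine proteases (B, C, F, H, K, L, S and Z), an aspartic protease (D) and a serine carboxypeptidase (A), which cut engulfed and worn-out proteins into peptides and amino acids. In the brain, cathepsins B, D and L occur in most cell types, whereas cathepsin S is best known from microglia and other antigen-presenting cells, where it trims the invariant chain of MHC class II. The question put to these genes is whether astrocytes captured after ablation of microglia carry more or less of the transcripts of the lysosomal proteases. The paper reports that some astrocytes, though not every one, engulfed microglial debris, and the captured cells were not separated by this.

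The main result is a family in which a single transcript passed the test. *Ctss* was 4.40-fold lower after DT, while the transcripts of the highest level, *Ctsd*, *Ctsb* and *Ctsl*, differed between the groups by small amounts that did not pass. *Ctsc* was 1.68-fold higher after DT without passing the test across all genes. Changes are differences of log2(CPM + 0.1) (CPM, reads scaled to library size), compared with limma in a two-sided test with Benjamini-Hochberg adjustment over 15137 genes, those whose mean CPM over the 6 libraries reached 0.5. All 10 members passed that filter. The threshold was an adjusted p of 0.05.

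The libraries held 21704891 to 32933975 reads over all genes, recovered from the steps of the CPM. A list of 15 astrocyte markers summed to 36559 to 37804 TPM (a level scaled by transcript length and library size) in the PBS libraries. In the DT libraries the sum was 38496 to 41476 TPM. The list holds *Gfap*, at 1109 TPM after PBS and 4238 TPM after DT, the 1 gene of the list past the threshold. The sum thus carries this change too. *Siglech* was at 1.68 ± 0.63 CPM (SD, n = 3) after PBS and had no read in any DT library. The paper reports that Siglec-H expression is reduced in this genotype, so the PBS value does not measure the microglial content. Transcripts of other cells were present too, and among these the summed choroid plexus markers varied most between libraries, from 157 to 3805 TPM. Per library, ependymal markers summed to 767 to 1727 TPM, neuronal markers to 762 to 1207 TPM, oligodendrocyte markers to 424 to 627 TPM and endothelial markers to 607 to 1140 TPM. Markers of monocytes and neutrophils, 11 of 12 of them listed, summed to 2.72 to 7.04 TPM. Of the 11, 7 had 0 reads in every library, *S100a8*, *S100a9* and *Plac8* among them.

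Sequence next to the start of 3 members is shown first, because these are the member with the fall, the member with the largest positive difference and the member with the highest level. Promoter sequences (RefSeq, GRCm38.p6, the same coordinates as mm10) were found for 8 of the 10 members, in 9 windows of 250 bases before and 50 after the start. No window was used for *Ctsb* and *Ctsh*. The letters searched for on both strands, after the values of the members were known, were CACGTG, the core of the element bound by the lysosomal regulator TFEB, its longer form TCACGTGA, which contains the first, GAGGAAGT, the core bound by the myeloid factor PU.1, and TTCNNNGAA, the palindrome bound by STAT factors. Capitals mark GAGGAAGT on the opposite strand (ACTTCCTC) for the first 2 sequences and TCACGTGA for the last.

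*Ctss*, chr3:95526728-95526805, plus strand: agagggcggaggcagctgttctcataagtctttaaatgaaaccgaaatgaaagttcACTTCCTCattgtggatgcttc

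*Ctsc*, chr7:88277878-88277997, plus strand: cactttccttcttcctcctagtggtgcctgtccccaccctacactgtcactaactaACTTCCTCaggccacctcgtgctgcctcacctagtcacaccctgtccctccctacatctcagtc

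*Ctsd*, chr7:142387908-142387937, minus strand: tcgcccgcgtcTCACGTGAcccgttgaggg

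In *Ctss* the capitals begin 2 bases before the start, and in *Ctsc* they begin 151 bases before it. GAGGAAGT was found in the windows of *Ctss* and *Ctsc* and of no other member with a window, and in 3.20% of all 32851 windows. TCACGTGA was found in the windows of *Ctsd* and *Ctsa*, and in 0.974% of all windows. In *Ctsd* it lies 99 bases before the RefSeq start but within the gene as GENCODE M21 draws it. CACGTG was found in *Ctsa*, *Ctsd*, *Ctsl* and *Ctsf*, against 7.15% of all windows, and TTCNNNGAA in *Ctsc*, against 8.30%. These matches describe letters and not binding, which was not measured.

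The members lie on 7 chromosomes of mm10. *Ctsk* (chromosome 3, 95499256 to 95509362) and *Ctss* (chromosome 3, 95526786 to 95556403) are neighbours on the plus strand, 17423 bases apart. *Ctsc* (plus strand, 88278085 to 88310888) and *Ctsd* (minus strand, 142375911 to 142388038) are both on chromosome 7 but far from each other. *Ctsa* (164832873 to 164841032, plus strand) and *Ctsz* (174427493 to 174439039, minus strand) are on chromosome 2. *Ctsb* is on chromosome 14 (63122462 to 63145923), *Ctsf* on chromosome 19 (4855130 to 4860918) and *Ctsh* on chromosome 9 (90054152 to 90076089), all on the plus strand. *Ctsl* is on the minus strand of chromosome 13 (64359337 to 64370890). Exons of *Ctsa* are overlapped over 1515 bases by the span of *Pltp* and exons of *Ctsb* over 774 bases by that of *Fdft1*, both on the opposite strand. The kit marks strand and mapping used it, but whether counting did is not given in the sources used here, so reads there may not be told apart. Exons of *Ctsd* lie over 1498 bases within the span of the gene model Gm49369 on the same strand, which is not among the genes listed. Exons of Gm49369 were not compared, so whether it affected the count of *Ctsd* is not known. The span of *Ctsl* holds the processed pseudogene Gm49230, 395 bases long, on the same strand and not listed either. Whether it affected the count of *Ctsl* is not known.

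The levels in the PBS libraries spanned a 408-fold range per length. *Ctsd*, the aspartic protease that starts the breakdown of many lysosomal proteins, stood highest at 659 ± 8.76 TPM (SD, n = 3). *Ctsb*, a cysteine protease with both endopeptidase and carboxydipeptidase activity, followed at 309 ± 13.9 TPM (SD, n = 3). *Ctsl*, a strong cysteine endopeptidase, was at 244 ± 12.4 TPM (SD, n = 3) and *Ctsf*, a related endopeptidase, at 200.4 ± 7.04 TPM (SD, n = 3). Together these 4 genes made up 78.6 ± 0.83% (SD, n = 3) of the summed TPM of the 10 members after PBS.

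The middle of the order was held by exopeptidases. *Ctsz*, which removes single residues from the carboxyl end, was at 151 ± 6.64 TPM (SD, n = 3). *Ctsa*, a carboxypeptidase that also protects β-galactosidase and neuraminidase in the lysosome, was at 114 ± 1.12 TPM (SD, n = 3). *Ctss* stood seventh at 73.1 ± 13.4 TPM (SD, n = 3). Below it came the aminopeptidase *Ctsh* at 34.4 ± 7.48 TPM (SD, n = 3) and *Ctsc*, the dipeptidyl peptidase that activates serine proteases of immune cells, at 11.001 ± 1.05 TPM (SD, n = 3). *Ctsk*, the collagenase of osteoclasts, was lowest at 1.61 ± 0.23 TPM (SD, n = 3) and rested on 16 to 35 reads per library.

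In the PBS libraries no 2 neighbours in this order overlapped. *Ctsb* and *Ctsl*, for example, were separated by 295 TPM in the lowest library of the former and 259 TPM in the highest of the latter. After DT the mean of *Ctss* lay below those of *Ctsh* and *Ctsc*, and the libraries of *Ctsc* overlapped with those of *Ctsh* above and of *Ctss* below.

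**Figure D1:**
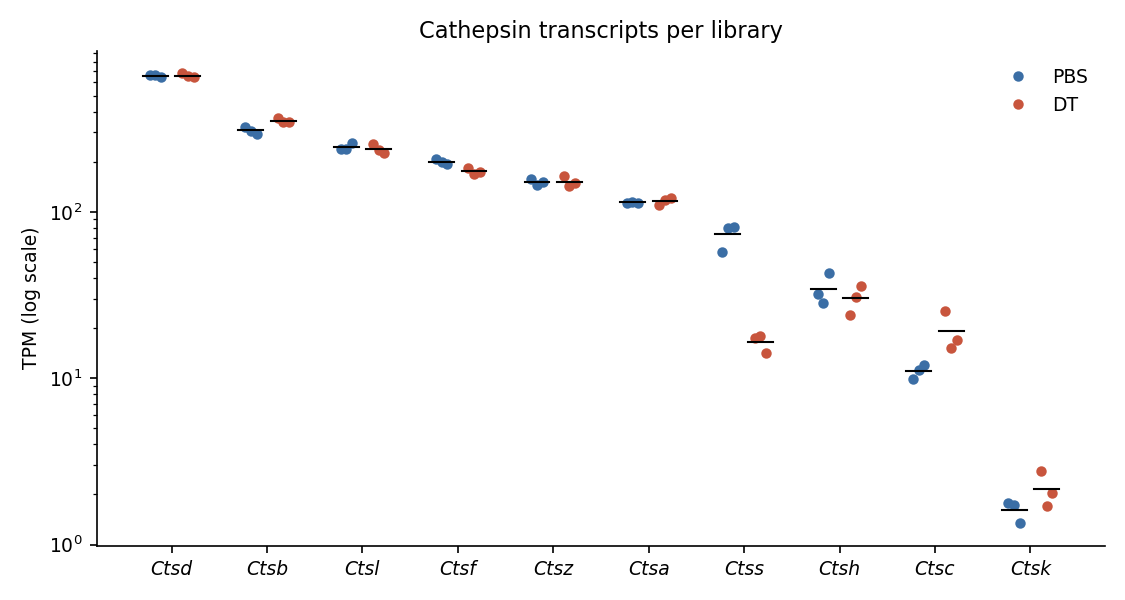
Level of each member in TPM (log axis), with 1 point per library (3 PBS, blue; 3 DT, red) and a line at the group mean. The 6 points of *Ctsd* lie between 643 and 680 TPM, whereas the *Ctss* points fall into a PBS group of 57.6 to 81.5 TPM and a DT group of 14.1 to 17.9 TPM.

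*Ctss* was at 57.6, 80.1 and 81.5 TPM in the PBS libraries and at 17.4, 17.9 and 14.1 TPM in the DT libraries. The groups were far apart, the lowest PBS library being 3.22 times the highest DT library, and the PBS library of replicate 1 lay below the other two of its group. The gene was read 592, 1212 and 823 times after PBS and 187, 249 and 149 times after DT. The log2 fold change was -2.14 ± 0.15 (SE, with 0.000612 as limma's adjusted p), which is 4.40-fold lower with a 95% interval from 3.44-fold to 5.62-fold. By p-value *Ctss* was number 10 of all genes tested. Its DT level was 22.4% of its PBS level in CPM. With no filter on low values the value was the same but the adjusted p was 0.0896, in a range of 9.33e-34 to 0.0896 over 17 alternatives.

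Of the members, 1 of 10 was lower and 0 were higher at the threshold. Among all genes tested, 24 were lower (0.159%) and 84 higher (0.555%), so 0.713% passed in either direction. At an unadjusted p under 0.05, 2 members were higher (*Ctsc* and *Ctsb*) and 2 lower (*Ctss* and *Ctsf*), where 894 of all genes tested were higher and 682 lower (10.4% in either direction). The quasi-likelihood test of edgeR on the recovered reads called *Ctss* alone, while its exact test and DESeq2 each called 1 member higher, *Ctsc*, and 1 lower, *Ctss*. The groups did not overlap for 4 members, the same 4 genes, where 16.3% of all genes tested had no overlap.

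**Figure D2:**
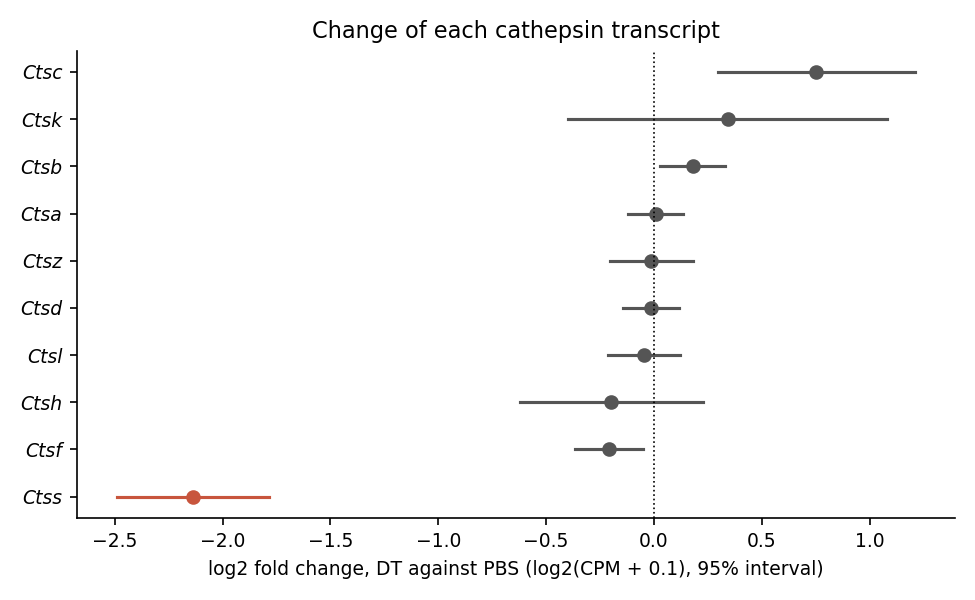
Change of each member as the log2 fold change of DT against PBS on the scale of log2(CPM + 0.1), with the 95% interval from limma, 3 libraries per group. *Ctss*, in red, is the single member past an adjusted p of 0.05, at -2.14, and the interval of *Ctsc* runs from 0.29 to 1.21.

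Transcripts of microglia moved with *Ctss*. A list of 25 microglia markers that holds no cathepsin summed to 316, 387 and 406 TPM in the PBS libraries and to 233, 209 and 217 TPM in the DT libraries. As with *Ctss*, replicate 1 had the lowest sum of the PBS group. Of the 25 markers 9 were lower and 0 higher at the threshold, 17 were lower and 0 higher at an unadjusted p under 0.05, 23 had a log2 fold change under 0, and their median was -0.93, where the median of all genes tested was -0.0052. DESeq2 called 11 of them lower and 0 higher. Markers of other cells had negative medians too. Those of endothelial cells summed to 718, 823 and 1140 TPM in the PBS libraries, replicate 1 again being lowest, and to 607, 635 and 727 TPM in the DT libraries, with 10 of 10 log2 fold changes under 0 and a median of -0.39. The medians of the oligodendrocyte precursor and oligodendrocyte lists were -0.35 and -0.32. By limma 0 genes of these 3 lists passed in either direction, while at an unadjusted p under 0.05 there were 6 endothelial, 3 precursor and 2 oligodendrocyte markers lower and 0 higher, and DESeq2 called 2, 2 and 0 lower and 0 higher.

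The microglial receptor *Csf1r* fell from 28.4 to 8.44 CPM, a log2 fold change of -1.74, and the fractalkine receptor *Cx3cr1* fell from 18.1 to 2.23 CPM, a log2 fold change of -2.96. The log2 fold change of 5 of the 25 markers was below that of *Ctss*. *Siglech* alone among the list had a library without a read. It passed the filter only through the PBS group, and it is 1 of these 5 and of the 9 markers called lower. In bulk RNA, fewer cells of a type and less RNA per cell cannot be told apart, and the part of the microglial or endothelial transcripts in the fall of *Ctss* was not tested.

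Over the 6 libraries, the genes whose log2 level followed *Ctss* most closely, among 11783 others with a mean CPM of at least 5, were *Csf1r* (Pearson's r = 0.998), *Tcirg1* (r = 0.993) and *Sft2d1* (r = 0.993). These correlations are over 6 points in 2 groups and describe mainly the step between the groups. The size of the step differed among them, with log2 fold changes of -1.74 for *Csf1r*, -0.18 for *Tcirg1* and -0.36 for *Sft2d1*, of which *Csf1r* alone passed the threshold.

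*Ctsc* was at 9.90, 11.1 and 11.99 TPM in the PBS libraries and at 25.45, 15.1 and 17.1 TPM in the DT libraries. Each DT library lay above each PBS library, and DT replicate 1 stood well above the other two. The reads numbered 185 to 307 after PBS and 326 to 499 after DT. The log2 fold change was 0.75 ± 0.20 (SE, with 0.215 as limma's adjusted p), which is 1.68-fold with a 95% interval from 1.23 to 2.31. Without DT replicate 1 the log2 fold change was 0.52 (adjusted p = 0.280). DESeq2 on the recovered reads gave an adjusted p of 0.0162 and the exact test of edgeR 0.0364, the extremes over all alternatives being 0.0162 and 0.599.

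Markers of border-associated macrophages, the macrophages of the meninges and vessels, were also higher after DT. The sum of 13 such genes was 28.8, 24.8 and 41.3 TPM in the PBS libraries and 83.7, 95.3 and 75.6 TPM in the DT libraries, and 5 of the 13 had no read in some library. Of the 9 tested, 3 were higher (*Lyve1*, *Mrc1* and *F13a1*) and 0 lower at the threshold, with 3 higher and 0 lower by DESeq2. At an unadjusted p under 0.05, 7 were higher and 0 lower. These 7 include *Cbr2* and *Mgl2*, at means of 0.28 and 0.11 CPM after PBS, which passed the filter only through the DT group. With such PBS levels, passing the filter required a higher DT level, so the direction of these genes is not informative. The choroid plexus sum was 479, 2261 and 157 TPM in the PBS libraries and 3805, 2658 and 1418 TPM in the DT libraries, and it was highest in DT replicate 1, as was *Ctsc*. All 11 choroid plexus markers had a log2 fold change above 0, with a median of 1.57, of which 8 were higher and 0 lower at an unadjusted p under 0.05 and 0 passed by limma or DESeq2. The border-associated macrophage sum was not highest in that library. The ependymal sum was 767, 982 and 958 TPM in the PBS libraries and 1043, 1076 and 1727 TPM in the DT libraries, highest in DT replicate 3. All 13 ependymal markers had a log2 fold change above 0, with a median of 0.48, and 0 passed by limma, 7 were higher and 0 lower at an unadjusted p under 0.05, and DESeq2 called 2 higher and 0 lower. Whether any of these cell types had a part in the level of *Ctsc* was not tested.

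**Figure D3:**
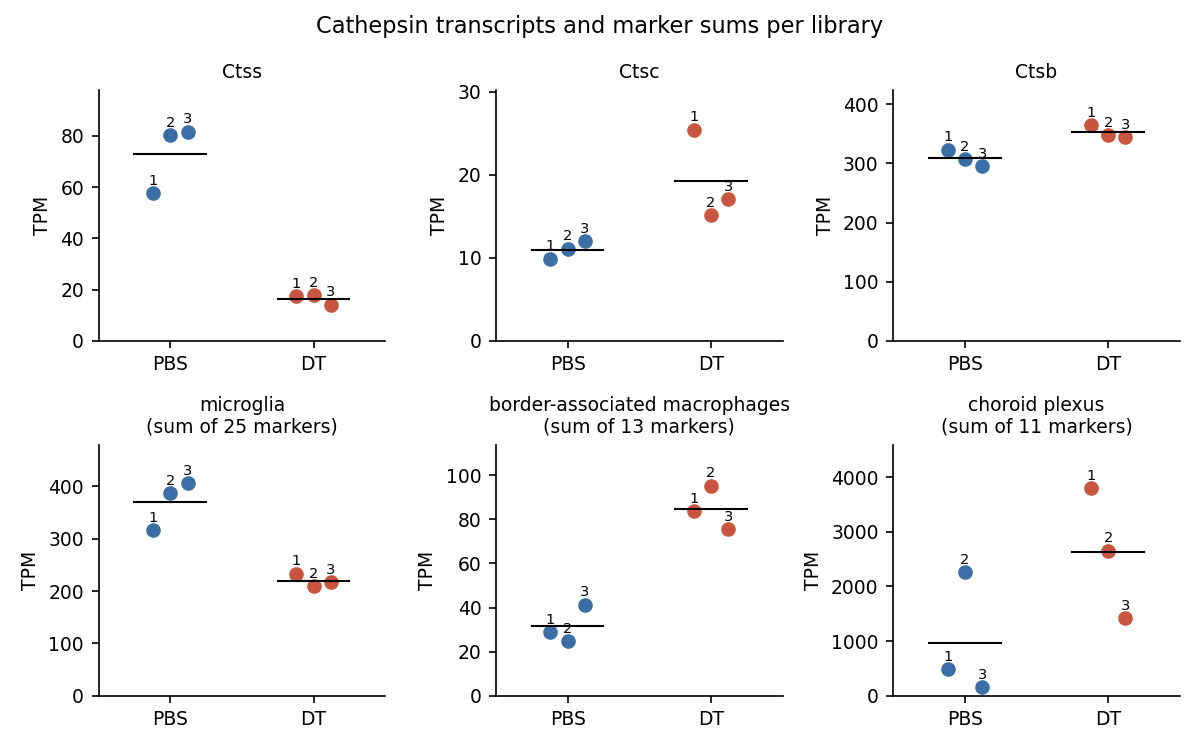
Level in TPM of *Ctss*, *Ctsc* and *Ctsb* (top) and summed TPM of the markers of microglia, border-associated macrophages and choroid plexus (bottom), with 1 point per library, its replicate number and a line at the group mean. *Ctss* and the microglia sum (316 to 406 TPM after PBS, 209 to 233 TPM after DT) are both lower after DT, and DT replicate 1 is highest for *Ctsc* and for the choroid plexus sum.

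*Ctsb* was at 323, 307 and 295 TPM in the PBS libraries and at 365, 348 and 345 TPM in the DT libraries. The groups did not overlap, but the step was small, 1.13-fold with a 95% interval from 1.02 to 1.26. Its log2 fold change of 0.18 (standard error 0.07) had an adjusted p of 0.394 from limma, with 0.0762 under quantile normalization as the lowest of the alternatives.

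*Ctsf* was at 207, 200.3 and 193 TPM in the PBS libraries and at 184, 168 and 173 TPM in the DT libraries. Here each DT library lay below each PBS library, with a log2 fold change of -0.21 ± 0.07 (SE, with 0.362 as limma's adjusted p). The DT level was 0.87-fold the PBS level, with a 95% interval from 0.78 to 0.97.

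*Ctsd* was at 663, 665 and 649 TPM in the PBS libraries and at 680, 653 and 643 TPM in the DT libraries. The groups overlapped, and the fold between them was 0.99 with a 95% interval from 0.91 to 1.09. The gene was read 9410 to 14463 times per library.

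*Ctsl* was at 237, 237 and 259 TPM after PBS and at 255, 236 and 226 TPM after DT. The groups overlapped, with a fold of 0.97 and an interval from 0.86 to 1.09.

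The transcripts of the carboxypeptidases also overlapped between the groups. *Ctsa* was at 113, 115 and 113 TPM after PBS and at 110.2, 117 and 122 TPM after DT, a fold of 1.01 with a 95% interval from 0.92 to 1.10. *Ctsz* was at 158, 145 and 150.4 TPM after PBS and at 163, 142 and 149 TPM after DT, a fold of 0.99 with an interval from 0.87 to 1.13. For both genes the sign of the log2 fold change varied among the alternatives, so no direction is given.

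*Ctsh* and *Ctsk* were measured with less precision. *Ctsh* was at 32.1, 28.3 and 42.7 TPM after PBS and at 23.9, 30.6 and 35.9 TPM after DT, and its interval ran from 0.65-fold to 1.17-fold. *Ctsk* was at 1.77, 1.72 and 1.34 TPM after PBS and at 2.75, 1.71 and 2.05 TPM after DT, and its interval ran from 0.76-fold to 2.11-fold. A doubling of *Ctsk* lies within that interval. *Ctsk* and *Ctss*, although adjacent on the chromosome, differed in level and had log2 fold changes of opposite sign, 0.34 for *Ctsk*, which did not pass, and -2.14 for *Ctss*.

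The log2 fold changes of 7 of the 10 members lay within 0.25 of 0, against 77.3% of all genes tested. Within the DT group, replicate 1 held the highest TPM of 7 of the 10 members, *Ctsa*, *Ctsh* and *Ctss* being the others. Within the PBS group, replicate 1 was highest for 4 members.

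Summed over the 10 members, the level was 1804, 1791 and 1797 TPM in the PBS libraries and 1827, 1731 and 1727 TPM in the DT libraries. The groups overlapped in this sum. The makeup of the sum shifted at *Ctss*, *Ctsb* and *Ctsf*. The share of *Ctss* was 4.07 ± 0.76% (SD, n = 3) after PBS and 0.93 ± 0.11% (SD, n = 3) after DT. The share of *Ctsb* was 17.2 ± 0.74% (SD, n = 3) after PBS and 20.0 ± 0.096% (SD, n = 3) after DT, and that of *Ctsd* was 36.7 ± 0.51% and 37.4 ± 0.30% (SD, n = 3 each). Shares add to a fixed total, so a lower share of 1 gene raises those of the others.

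**Figure D4:**
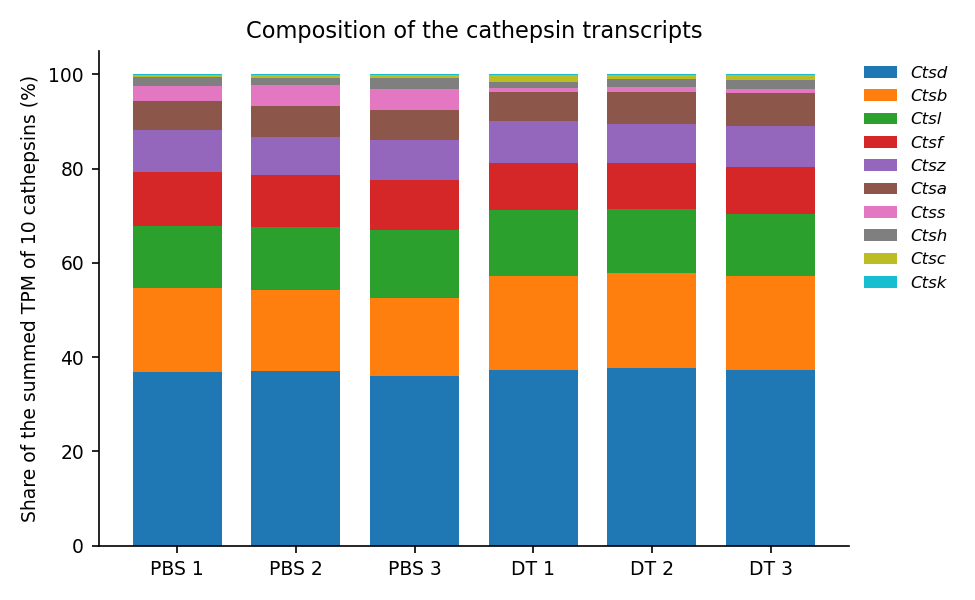
Share of each member in the summed TPM of the 10 cathepsins, in percent, as 1 stacked bar per library (3 PBS, 3 DT). *Ctsd*, *Ctsb*, *Ctsl* and *Ctsf* fill 77.7% to 81.2% of every bar, and the *Ctss* band is 3.19% to 4.54% after PBS and 0.82% to 1.03% after DT.

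Other cathepsin genes were mostly silent in these libraries. Of 13 further cathepsins, 11 had no read in any library, among them *Ctse*, *Ctsg* and the placental cathepsins of rodents such as *Ctsj* and *Ctsq*, which at this depth allows up to 0.0904 to 0.138 CPM per library (3 reads, counting error only). *Ctso*, a widely expressed cysteine protease, was at 109 TPM after PBS and 102 TPM after DT, near the level of *Ctsa*, a log2 difference of -0.10 (limma, adjusted p = 0.706). *Ctsw*, a protease of cytotoxic lymphocytes, was at 2.78 TPM after PBS and 2.86 TPM after DT. Of these 13 genes 2 were tested and 0 passed in either direction, nor did any at an unadjusted p under 0.05 or by DESeq2.

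Inhibitors of cathepsins were led by *Cst3*, the secreted inhibitor cystatin C, at 8180 TPM after PBS and 8381 TPM after DT, more than the 10 members together. Its log2 fold change was 0.0239 ± 0.07 (SE, with 0.944 as limma's adjusted p). Next came the serpin *Serpinb6a* at 108 TPM after PBS and 112 TPM after DT. Of 20 inhibitors 18 were listed and 7 tested, 0 passed the threshold in either direction with limma, edgeR or DESeq2, and at an unadjusted p under 0.05 there was 1 higher and 0 lower.

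A list for the sorting and activation of lysosomal proteins held 15 genes, among them also the transcription factors *Tfeb*, *Tfe3* and *Mitf*. It gave 0 calls among 15 tested by limma, edgeR and DESeq2, and 0 at an unadjusted p under 0.05. The median log2 fold change of the 15 genes was 0.0772. *Psap*, the saposin precursor, was highest at 1455 TPM after PBS and 1415 TPM after DT, and *Scarb2*, a lysosomal sorting receptor, followed at 535 and 546 TPM. *Lgmn*, the legumain that cleaves cathepsin precursors, was at 227 and 244 TPM, and *M6pr*, a mannose 6-phosphate receptor, at 162 and 174 TPM.

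Lysosomal membrane genes numbered 19, all tested, with 1 higher and 0 lower at the threshold. At an unadjusted p under 0.05, 2 were higher and 1 lower. *Lamp1*, a main glycoprotein of that membrane, was at 1023 TPM after PBS and 1021 TPM after DT, and *Laptm4a* at 394 and 412 TPM. The gene past the threshold was *Cd68*, a lysosomal glycoprotein of macrophages. It rose from 6.998 to 17.03 TPM, with a log2 fold change of 1.21 ± 0.19 (SE, with 0.0350 as limma's adjusted p). Its DT libraries were at 20.95, 13.97 and 16.16 TPM, highest in replicate 1 as for *Ctsc*, and it passed in 7 of 17 alternatives. Of 37 other lysosomal hydrolases 36 were tested, and their median log2 fold change was -0.014. The highest, *Naaa* and *Asah1*, both lipid amidases, stood at 322 and 218 TPM after PBS and at 287 and 212 TPM after DT.

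Over the 79 tested genes of these related lists, the median log2 fold change was 0.0078. The groups did not overlap for 12.7% of them, against 16.3% of all genes tested.

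**Figure D5:**
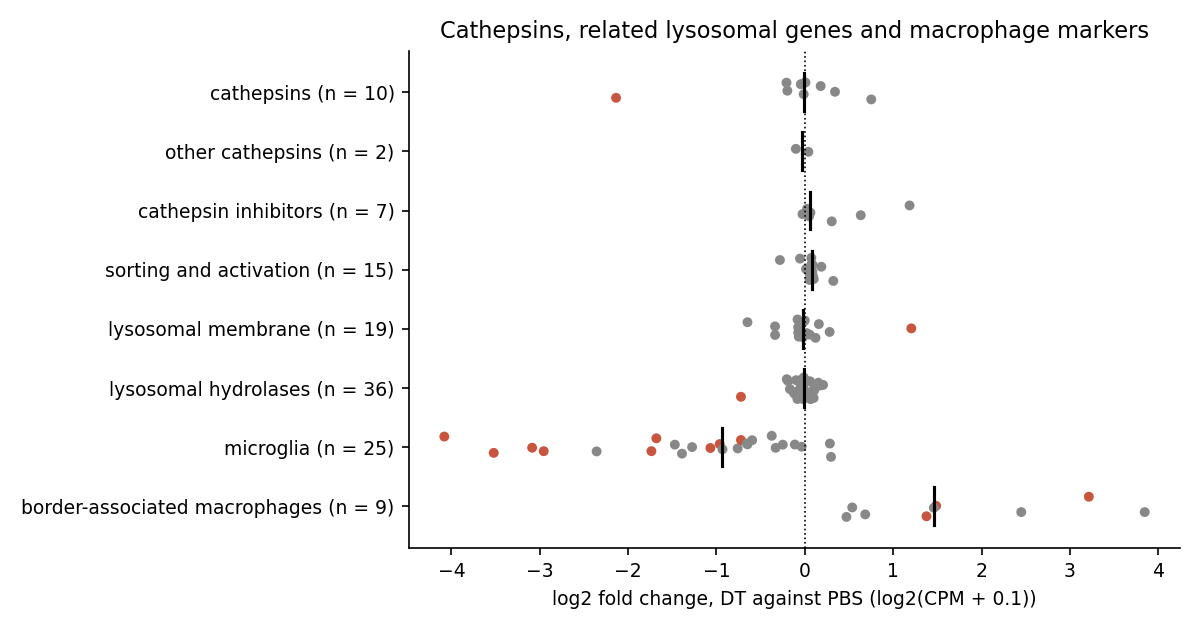
log2 fold change of DT against PBS, on the scale of log2(CPM + 0.1), for each tested gene of the cathepsins, 5 related lists and 2 macrophage marker lists. Each point is a gene, red where the adjusted p is under 0.05, and the line is the list's median. It is -0.012 for the cathepsins, -0.93 for microglia (the leftmost point, *Siglech*, had no read after DT) and 1.46 for border-associated macrophages. The last median is over the 9 tested genes, of which *Cbr2* and *Mgl2* passed the filter only through the DT group.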

How the data were processed

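Astrocyte RNA of 3 PBS and 3 DT libraries was analysed from the tables the authors deposited. According to the paper's methods and the submitters' processing notes, reads were trimmed with Trim Galore 0.5.0, mapped to mm10 with HISAT2 2.1.0, cleared of rDNA with BEDTools 2.25.0, quantified with StringTie 1.3.5 and compared with edgeR 3.24.3. The deposited CPM signal is scaled to library sizes with TMM factors (columns sum to 980428 to 1026170), where plain CPM had been assumed. TPM values were deposited beside it. Both deposited tables also hold a p-value, a q-value and a log2 fold change from the authors' own comparison, which were not used. Whole reads were recovered from the CPM steps (100% of values within 0.1 read).

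limma 3.58.1 in R 4.3.3 was run on log2(CPM + 0.1) with a variance trend, for genes averaging 0.5 CPM or more. Alternatives were edgeR 4.0.16, DESeq2 1.42.0 and other settings, tested on simulated data too. The p-values measure the spread between these pools. The members, lists and motifs were chosen with earlier results of these data known. Calls within the lysosomal hydrolases are not reported here. Named are all members, other genes of the related lists past the threshold, the 2 highest of each related list and the 3 genes most like a called member. *Lgmn*, *M6pr*, *Ctse*, *Ctsg*, *Ctsj*, *Ctsq*, *Serpinb8*, *Tfeb*, *Tfe3*, *Mitf* and the markers were added after their values were seen. Coordinates are those of GENCODE M21.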

Additional observations from a re-analysis of the deposited data

How the results depend on the processing

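The depth limits *Ctsk* most, with 16 reads in its lowest library. Of 169 log2 fold changes of members under 17 alternatives, 157 kept their direction and side of the threshold. With no filter on low values, *Ctss* (-2.14) lost its call, so 0 members were lower, with 5 genes higher and 1 lower in all. With no variance trend, 35 genes were higher and 11 lower. The exact test of edgeR called 191 genes higher and 72 lower and DESeq2 227 and 98, and in each *Ctsc* passed at 0.80, so 1 member was higher. The cause of these changes was not tested. *Ctsz* was at 0.00043 with TPM and 0.0048 with quantile normalization. When single libraries were left out, *Ctsz* ranged from -0.084 to 0.044, *Ctsd* from -0.052 to 0.0088, *Ctsa* from -0.022 to 0.031, and all genes from 39 to 72 higher (39 without DT replicate 1, 40 without DT replicate 2) and from 9 to 20 lower (11, 9 and 10 without PBS replicates 1, 2 and 3, and 10 without DT replicate 2), while *Ctss* kept its call, from -2.29 to -2.03. Same-numbered libraries had correlations of deviations of 0.115, 0.0105 and 0.118, against -0.124 to 0.0115 for differently numbered ones. The values 0.115 and 0.118 lay above that range and 0.0105 within it, so they did not settle whether libraries were paired. Under the replicate block the counts were 79 genes higher and 30 lower, and *Ctss* kept its call at -2.14 (adjusted p = 0.00419) and no other member passed. *Cd68* missed the threshold under the block. A mean CPM of at least 2 left no value for *Ctsk*. Of the other results for lists and for single genes of them, 853 kept their call or value, 47 moved and 17 were weaker.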
